A study of Homo sapiens with 21 samples.

Results

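The mRNAs of 7 genes of the microRNA machinery, AGO1, AGO3, AGO4, TNRC6A, TNRC6B, TNRC6C and DICER1, were followed as RNA targets of AGO2, FUBP3 and KHSRP in Flp-In T-REx 293 cells, an established line derived from human embryonic kidney. Their sites were taken as the crosslinked clusters that carried one of these gene names in the deposited cluster lists of 12 libraries. There were 1462 such clusters among 794833 clusters in those libraries, and 855812 clusters were listed in all 17 libraries of the series with a cluster file. The series held 21 samples and tested a version of PAR-CLIP in which RNA is tagged with a fluorescent adapter in place of a radioactive label. In PAR-CLIP, cells take up 4-thiouridine (4SU), ultraviolet light crosslinks it to a bound protein, and the crosslinked base appears as T-to-C in the sequenced read.

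All groups carried a stably integrated transgene for the studied protein with a FLAG-HA tag, were labelled with 100 uM 4SU for 8 to 12 h, and were purified through the FLAG tag. The fluorescent AGO2 libraries were digested with RNase I at 0.15 and 1.5 U/ul, 1 library at each dose. The radiolabelled AGO2 libraries were digested with RNase T1 at 1 U/ul and made without a urea gel step (no gel, A and B) or with it (gel, A and B). The fluorescent FUBP3 and KHSRP libraries were digested with RNase I at 0.15, 0.5 and 1.5 U/ul, 1 library at each dose. The tagged proteins were made from transgenes beside the cells' own copies, which limits them as a model of the untagged proteins. KHSRP cells were lysed in RIPA buffer with sonication, and the labels gave a milder NP40 lysis for cytoplasmic proteins and did not name the lysis used for FUBP3. Where KHSRP is compared, the part of lysis was not tested.

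DICER1 encodes the RNase III enzyme that cuts microRNA precursors into mature duplexes. AGO1, AGO3 and AGO4 encode Argonaute proteins, which carry one strand of the duplex and find mRNAs by pairing with its seed, bases 2 to 8. TNRC6A, TNRC6B and TNRC6C encode GW182 scaffold proteins, which bind Argonaute and recruit deadenylases to the paired mRNA. Sites of let-7 and of miR-103 in human DICER1 mRNA have been described before, and a microRNA that pairs with an mRNA of its own machinery is a form of feedback. KHSRP and FUBP3 belong to one family of KH-domain proteins that bind single-stranded RNA, and KHSRP is also known for binding the loops of some microRNA precursors.

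Overlapping member clusters of one build, or clusters of different builds with a common stretch of at least 18 nt, were joined into 1149 sites, numbered within each gene. AGO2 libraries held 182 of these sites, and 35 of the 182 carried a 7-base match to the seed of at least 1 of 19 microRNA families listed as expressed. These families differed in level, taken as AGO2 reads in clusters that hold bases 2 to 17 of a mature microRNA with the seed. By library the share of reads was 4.73% to 18.3% for miR-17 and 0.157% to 0.378% for miR-103. It was 0% to 0.138% for miR-18 and 0% to 0.000646% for miR-101. The microRNAs whose seed matches are marked in the windows shown here follow, from RefSeq (GRCh38.p14), 5′ to 3′, with the seed in capitals. They are the reference against which the mRNA windows can be read.
let-7a: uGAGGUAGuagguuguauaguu
miR-103a: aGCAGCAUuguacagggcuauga
miR-16: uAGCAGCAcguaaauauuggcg
miR-18a: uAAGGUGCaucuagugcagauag
miR-17: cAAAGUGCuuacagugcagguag
miR-19b: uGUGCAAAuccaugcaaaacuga
miR-130b: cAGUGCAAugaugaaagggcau
miR-148a: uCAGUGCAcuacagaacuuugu
miR-26a: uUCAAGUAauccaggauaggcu
miR-30a: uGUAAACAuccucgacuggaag

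The seeds of miR-103 and miR-16 overlap, so ATGCTGC and TGCTGCT can share bases, and the same holds for TTTGCAC (miR-19), TTGCACT (miR-130) and TGCACTG (miR-148). The windows below were cut from the deposited AGO2 cluster sequences, at most 30 nt, 5′ to 3′ on the strand of the mRNA, with seed matches in capitals. Matches were searched on that strand only. The first set shows DICER1 and the Argonaute mRNAs, because let-7 matches were found in DICER1 and in no other of the 7 mRNAs, and matches of miR-103, which has the seed of miR-107, in DICER1, AGO1, AGO3 and TNRC6B.
DICER1-3: ccgtgcaaccaaCTACCTCatattccattc
DICER1-12: tggaCTACCTCataaccaaGCACCTTtatg
DICER1-14: atgctaacaaatCTACCTCagatggaagtc
DICER1-24: atactgtgttCTACCTCttaatg
DICER1-1: cATGCTGCagaaatttgcagtctGCACCTT
DICER1-4: cacatatctatTTTGCACTtaccctgatgc
AGO1-1: ctgtcagATGCTGCTaccaag
AGO1-2: acaTTTGCACTTTcaaacatg
AGO3-1: taaccttgtATGCTGCattatataataatg
AGO4-1: tactgtaaattctattTGCTGCTtccaaag

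The second set shows the TNRC6 mRNAs, because several of their windows were alike between paralogs around the same seed match. TNRC6A-3, TNRC6B-1 and TNRC6B-2 had no such paralogous window and were sites listed in at least 3 AGO2 libraries.
TNRC6A-1: tatcagtttgaaTACTTGAatcatgcaggc
TNRC6B-5: tcactcttgaaaTACTTGAatcatgaacgc
TNRC6C-23: catatcaaacatgcaaaTACTTGAatccag
TNRC6A-10: tcccagtgtcaaTGTTTACtcaag
TNRC6C-18: acaattcatgtgtaaaTGTTTACtcaag
TNRC6A-3: cttttaacTGTTTACaaata
TNRC6A-2: acgtatgagcttttcccTTTGCACTGaatg
TNRC6C-15: tagcttctaacTTTGCACTGagtgtcctcg
TNRC6B-1: tgctggatttaagcactgctGCACTTTatg
TNRC6B-2: tagcgaagacttttaagtattGCACCTTtt
TNRC6A-1 and TNRC6B-5 shared the 15 nt aaTACTTGAatcatg around a miR-26 match, and TNRC6A-10 and TNRC6C-18 shared the 14 nt aaTGTTTACtcaag around a miR-30 match. TNRC6B-5 and TNRC6C-23 shared 13 nt, aaaTACTTGAatc, around the miR-26 match. The same letters between paralogs are a description of the sequence. Whether reads of such stretches were split between paralogs was not tested.

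Reads in clusters numbered from 77572 (AGO2 gel B) to 2172248 (KHSRP at 0.15 U/ul) per library, in 2305 to 180358 clusters. No library listed a cluster with fewer than 5 reads, so a gene with less than that appears here as having no cluster listed. Between 82.6% and 93.9% of clusters carried a gene name. MicroRNA genes held 33.0% to 59.7% of the reads in the AGO2 libraries, 0.0856% to 0.102% in FUBP3 and 0.240% to 1.09% in KHSRP. All 1207 member clusters with hg38 coordinates lay inside the RefSeq spans of their genes. The radiolabelled AGO2 libraries used another build, so no coordinates are given for them. Values are given in rpm, reads of a gene or site per 1000000 reads in the clusters of its library, and in material from many cells fewer cells and less RNA per cell cannot be told apart. Intervals on counts and shares are at 95% (Wilson for shares) and cover counting error only.

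The 7 mRNAs together held 166 rpm in the fluorescent AGO2 library at 0.15 U/ul and 23.8 rpm in the one at 1.5 U/ul. In the radiolabelled AGO2 libraries they held 2448 and 1986 rpm when the gel was left out, and 1588 and 1586 rpm when it was run. In FUBP3 they held 1253, 1373 and 1635 rpm at 0.15, 0.5 and 1.5 U/ul, and in KHSRP 1633, 1566 and 1698 rpm. The fluorescent AGO2 libraries therefore lay below every other library, with 49 and 8 reads in 4 and 1 clusters. They also held few reads in mRNA regions of any gene. Clusters outside 3' UTRs, coding sequence and introns held 91.2% and 92.7% of their reads at 0.15 and 1.5 U/ul. In the radiolabelled AGO2 libraries such clusters held 52.9% to 75.6%, and in FUBP3 and KHSRP 12.3% to 18.6%. The part of this in the low member values was not tested.

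**Figure D1:**
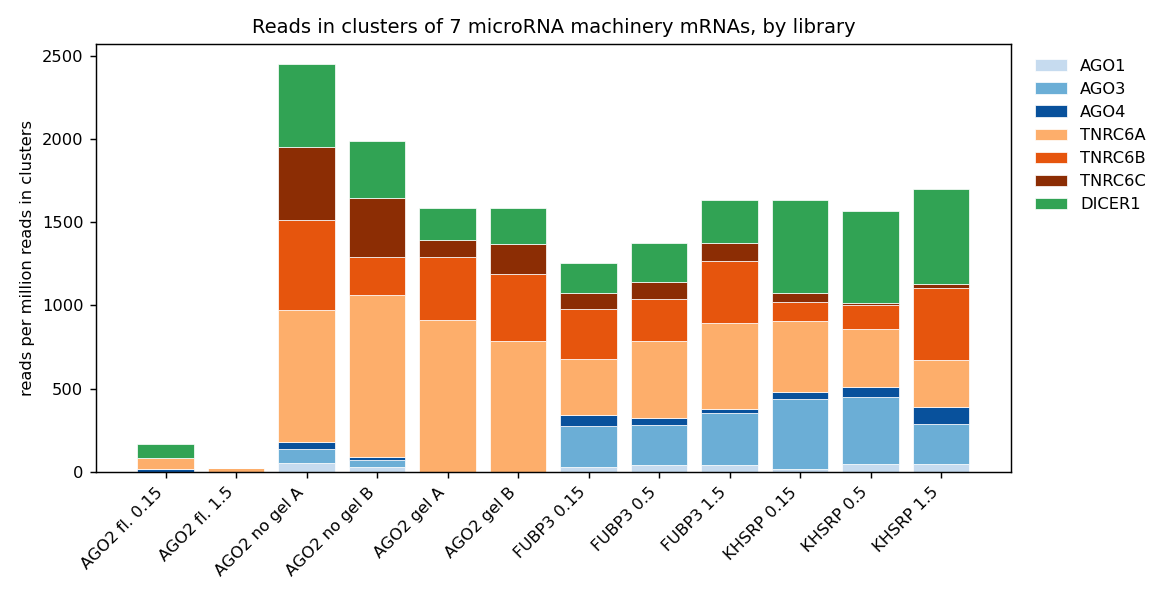
Stacked bars give rpm (y axis) for the 7 mRNAs in each of the 12 libraries (x axis; fl., fluorescent), without error bars because each bar is 1 library. The fluorescent AGO2 libraries stand at 166 and 23.8 rpm and the other libraries between 1253 and 2448 rpm. Gene lengths are not accounted for, so colours should be compared between libraries, not with each other.

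In the AGO2 libraries the sites of the 7 mRNAs lay mostly in 3' UTRs. Of 255 member clusters in the radiolabelled libraries, 173 (67.8%) were in 3' UTRs, 57 (22.4%) in coding sequence and 14 (5.49%) in introns, by the deposited region class. By library the 3' UTR share of the members was 64.7% and 70.7% in no gel A and B, and 78.6% and 61.5% in gel A and B. Over all clusters of the same libraries it was 43.4% and 47.0% in no gel A and B, and 50.6% and 53.8% in gel A and B. The member share was above that of all clusters in each of the 4 libraries. All clusters include unnamed ones and those of microRNA genes. Over clusters of any gene classed as 3' UTR, coding or intron, the 3' UTR share was 55.7% and 59.8% in no gel A and B, and 65.7% and 73.1% in gel A and B. Over the same 3 classes the members had 90, 35 and 10 clusters in no gel A, 53, 17 and 4 in no gel B, 22, 3 and 0 in gel A, and 8, 2 and 0 in gel B, so most were 3' UTR clusters in each library. The 5 fluorescent AGO2 clusters had 3 in 3' UTRs and 2 in coding sequence.

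**Figure D2:**
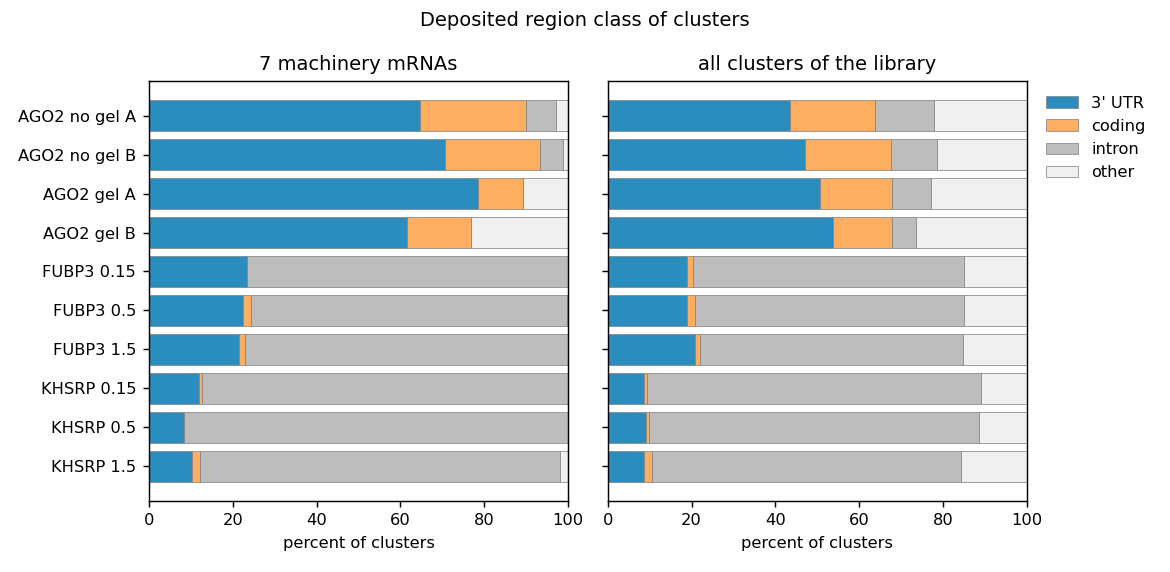
Horizontal bars give the percent of clusters (x axis) in each deposited region class, by library, for the 7 mRNAs (left) and all clusters of the library (right). AGO2 member clusters are mostly 3' UTR (61.5% to 78.6%), and FUBP3 and KHSRP member clusters mostly intron (75.3% to 91.6%). The fluorescent AGO2 libraries, with 4 and 1 member clusters, are not drawn.

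The classes differed among the members. AGO1 had all 8 AGO2 clusters in its 3' UTR. AGO3 had 9 of 11 AGO2 clusters there, AGO4 6 of 7, TNRC6C 37 of 50, TNRC6B 39 of 55 and TNRC6A 51 of 76. DICER1 was split between 26 clusters in the 3' UTR and 24 in coding sequence of 53. TNRC6B had 4 clusters at its start codon and 2 in its 5' UTR, and these 6 held 32.6% of its AGO2 reads.

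Matches to the seeds of the 19 families were found in 61 of 255 member clusters of the radiolabelled AGO2 libraries (23.9%, 19.1% to 29.5%). Among 3' UTR clusters of these libraries the share was 23.1% for the members and 17.2% for all genes, and among all clusters outside microRNA genes it was 15.2%. Among clusters with at least 10 reads it was 36.8% for member clusters of any region class and 25.5% for 3' UTR clusters of all genes. Seeds of 4 families were listed as not expressed in these cells (miR-1, miR-122, miR-133 and miR-208). They matched 1.57% of member clusters of any region class and 0.404% of 3' UTR clusters of all genes. These last 2 comparisons set unlike region classes side by side. In FUBP3, 4.48% of member clusters held a match to the 19 families, and in KHSRP 5.29%, against 4.54% and 5.24% of all their clusters outside microRNA genes. Clusters of one site recur across libraries and are not independent, and no test was made of these shares. Longer clusters offer more bases to match. In the radiolabelled AGO2 libraries the median 3' UTR cluster was 25 nt in the members and 23 nt in all genes. The part of length was not tested.

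The families differed in how often they matched. CTACCTC, the let-7 match, was in 5 of 57 coding clusters of the members (8.77%) and in 1.78% of all coding clusters, all 5 in DICER1, and in 0 of 173 3' UTR clusters of the members (0.845% of all 3' UTR clusters). ATGCTGC (miR-103) was in 9 of the 173 (5.202%), against 1.30% of all 3' UTR clusters. GCACCTT (miR-18) was in 8 (4.62%, against 0.773%), TGTTTAC (miR-30) in 7 (4.05%, against 1.30%), and TACTTGA (miR-26) in 5 (2.89%, against 0.745%). TTTGCAC (miR-19) was in 6 (3.47%, against 2.71%), which is close to the share of all 3' UTR clusters. Some families were less frequent in the 3' UTR clusters of the members: GCACTTT (miR-17) was in 3 (1.73%, against 2.52%), and GTGCAAT, the miR-92 match, in 0, against 1.68%. Over all classes miR-17 matches lay in 5 sites of 4 genes with 278 AGO2 reads. Outside 3' UTRs these were the start-codon sites TNRC6B-1, with 221 of the reads, and TNRC6A-33, and the intron site TNRC6C-20. These are few sites counted in several libraries: miR-103 matches lay in 7 sites of 4 genes, miR-19 matches in 6 sites of 5 genes, miR-26 and miR-30 matches in 4 sites each, and let-7 matches in 4 sites of DICER1. The miR-18 matches lay in 3 sites of 2 genes. Its 8 matched 3' UTR clusters came from DICER1-1 and TNRC6B-2 alone, each counted in the same 4 libraries.

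Over sites, 132 of the 182 AGO2 sites were in 1 library, 34 in 2 and 16 in at least 3. A seed match was present at 8 of the 16 recurrent sites and 18 of the 132 single-library sites. A site counted as matched if any of its AGO2 clusters held a match, so recurrent sites had more sequence to search. These 2 counts therefore cannot show whether matches go with recurrence. In all, 22 of the 35 sites with a match were in 3' UTRs, 7 in coding sequence and 2 in introns, and the other 4 were at start codons or in a 5' UTR. At 20 of the 35 sites an A followed at least 1 match, opposite base 1 of the microRNA. Matches to more than 1 family lay at 9 sites, which gave those sites more places for such an A. No share over all genes stands beside this count.

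TNRC6A had 47 AGO2 sites, the most of the 7 mRNAs, and a 3' UTR site that was listed in every AGO2 library. That site, TNRC6A-1, had 10 and 8 reads in the fluorescent libraries at 0.15 and 1.5 U/ul, 67 and 82 in the no gel libraries and 17 and 18 in the gel libraries. In the fluorescent libraries it lay at chr16:24823961-24823988 (hg38, plus strand). The miR-26 match lay within the cluster of only 1 of the 6 libraries, no gel B, and the clusters of the other libraries did not hold the 7 bases. No other AGO2 site of the 7 mRNAs was listed in both fluorescent libraries.

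TNRC6A-2, with TTTGCACTG, the joined match of miR-19, miR-130 and miR-148, had 120 and 137 reads in the no gel libraries and 37 and 18 in the gel libraries. It was the site with most AGO2 reads among the 7 mRNAs, and the same 9 bases lay in TNRC6C-15, with 51 reads in no gel A alone. The miR-30 site TNRC6A-3 had 60 and 19 reads without the gel and 12 in gel A, and its window lay at chr16:24825351-24825370. A second miR-30 site, TNRC6A-10, had 34 and 47 reads without the gel and no cluster listed with it, at chr16:24824250-24824273. The start-codon site TNRC6A-7 held a match to miR-181 and had 31 reads in no gel A and 7 and 6 in the gel libraries. The other recurrent TNRC6A sites, 4, 5, 6 and 8, held no listed seed match.

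TNRC6B had 38 AGO2 sites. TNRC6B-1 at the start codon held GCACTTT, the miR-17 match, directly before the atg that ends its cluster, and had 134 and 49 reads in the no gel libraries and 29 and 9 in the gel libraries. TNRC6B-2 in the 3' UTR held GCACCTT (miR-18) and had 16 and 14 reads in the no gel libraries and 5 in each gel library. TNRC6B-5, the paralogous miR-26 site, had 44 and 19 reads without the gel and no cluster listed with it. TNRC6B-3 and TNRC6B-4, both in the 3' UTR, recurred without a listed seed match. TNRC6C had 34 AGO2 sites, of which 1 recurred in at least 3 libraries (TNRC6C-1, 16 and 9 reads without the gel and 6 in gel B), again without a listed match.

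DICER1 had 39 AGO2 sites. DICER1-1 in the 3' UTR, with matches to miR-103 and miR-18, had 13 and 42 reads in the no gel libraries, 11 and 6 in the gel libraries, and was listed in all 4 radiolabelled libraries. The miR-18 match lay within the cluster of all 4 libraries and the miR-103 match within that of only 1, no gel B. DICER1-2, a 3' UTR site without a listed match, had more reads, 93 and 50 without the gel, and 6 in gel A. Of the 4 let-7 sites, all in coding sequence, DICER1-3 had 30 and 15 reads without the gel and 11 in gel B, and DICER1-12 and DICER1-24 had 28 and 8 in no gel A. The remaining one, DICER1-14, was seen in the fluorescent library at 0.15 U/ul, with 24 reads of 22 distinct sequences; its window lay at chr14:95103630-95103659 (hg38, minus strand). An A followed the match at DICER1-3, DICER1-12 and DICER1-14, as the windows show.

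The Argonaute mRNAs had fewer AGO2 sites, 8 in AGO1, 10 in AGO3 and 6 in AGO4, none in more than 2 libraries. AGO1-1, with joined matches to miR-103 and miR-16, had 17 reads in no gel A, and AGO1-2, with TTTGCACTTT, had 12 in no gel B. AGO3-1, with a miR-103 match, had 25 and 15 reads in the no gel libraries, and AGO4-1, with a miR-16 match, had 21 and 6. No cluster of AGO1, AGO3 or AGO4 was listed in either gel library.

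**Figure D3:**
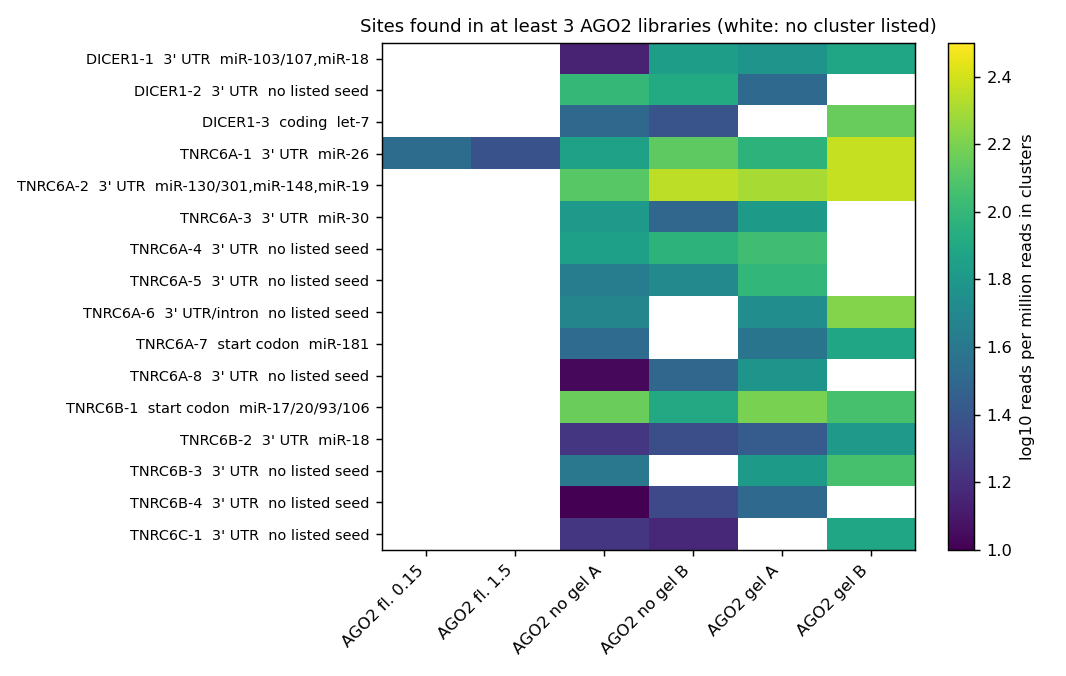
Colours give log10 rpm for the 16 sites of the 7 mRNAs found in at least 3 AGO2 libraries (rows: site, region and listed seed family) in the 6 AGO2 libraries (columns; fl., fluorescent). White cells had no cluster listed. TNRC6A-1 is the only row filled in every column.

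The gel comparison asked whether leaving out the urea gel altered what AGO2 libraries report, and it was the only one with more than 1 library per group. The labels do not say that A and B came from separate cultures, so p-values measure a spread that may be technical. TNRC6A had 736 and 590 reads without the gel, against 167 and 61 with it (792 and 970 rpm against 911 and 786 rpm). TNRC6B had 500 and 141 reads without the gel, against 70 and 31 with it (538 and 232 rpm against 382 and 400 rpm). For both scaffold mRNAs the groups overlapped in rpm, with a log2 fold change of no gel over gel of 0.04 (SE 0.27, adjusted p 0.962, edgeR quasi-likelihood with Benjamini-Hochberg adjustment) for TNRC6A and −0.01 (SE 0.44, adjusted p 0.993) for TNRC6B.

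TNRC6C had 410 and 212 reads without the gel, against 18 and 14 with it (441 and 349 rpm against 98.2 and 180 rpm). DICER1 had 461 and 209 reads without the gel, against 36 and 17 with it (496 and 344 rpm against 196 and 219 rpm). Their groups did not overlap, and neither did those of 46.4% of all genes tested. The log2 fold changes were 1.59 (SE 0.40, unadjusted p 0.00458, adjusted p 0.205, edgeR) for TNRC6C and 1.02 (SE 0.36, unadjusted p 0.0226, adjusted p 0.301, edgeR) for DICER1. AGO1, AGO3 and AGO4 could not be tested, since the filter asked for a cluster in every library. Of 10809 named genes with a cluster in any of these libraries, 1121 met that filter. AGO1, AGO3 and AGO4 had 53.8 and 31.2, 83.9 and 42.7, and 43.0 and 18.1 rpm in the no gel libraries.

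Over 1121 genes tested, 3 were called at an adjusted p under 0.05 (0.268%) by edgeR, and 149 were at an unadjusted p under 0.05. Of the 4 tested members 0 were called by edgeR, with 2 at an unadjusted p under 0.05. DESeq2 also called 0 members, with 2 at an unadjusted p under 0.05, as were 97 of the 1121 genes. The median log2 fold change was 0.53 for the 4 members and 0.01 for all genes. The 7 mRNAs summed held 2217 ± 326 rpm without the gel and 1587 ± 1.68 rpm with it (SD, n = 2 each), a difference of 630 rpm (two-sided exact permutation p 0.33, the smallest that 2 against 2 libraries can give).

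The smallest listed cluster is a larger share of a shallower library. When only clusters above one common share of the reads were kept (at least 60 and 40 reads in the no gel libraries and 12 and 5 in the gel libraries, a setting chosen after seeing the data), the members held 907 and 1141 rpm in no gel A and B and 977 and 1586 rpm in gel A and B. Their difference became −257 rpm (exact permutation p 0.667). Set over reads outside microRNA genes, the members held 3760 and 3334 rpm in no gel A and B and 3328 and 3934 rpm in gel A and B, a difference of −84.7 rpm (exact permutation p 1). In both the groups overlapped and the direction was the opposite one. No cluster of AGO1, AGO3 or AGO4 reached the common share in any of the 4 libraries.

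**Figure D4:**
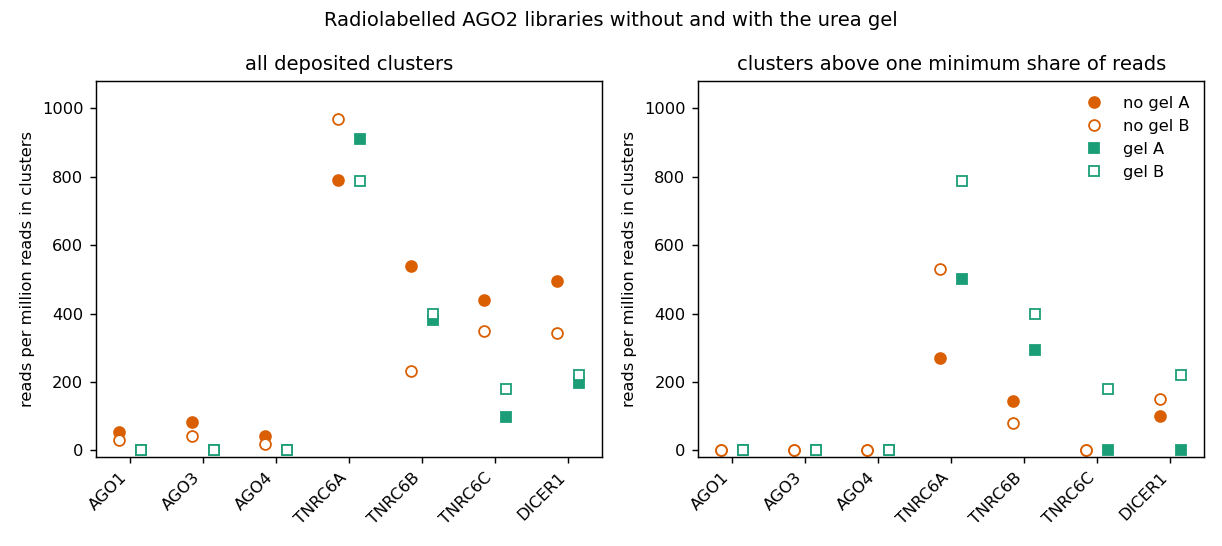
Points give rpm (y axis) of each mRNA in the no gel libraries (circles; A filled, B open) and the gel libraries (squares; A filled, B open), from all deposited clusters (left) and from clusters above one common share of the reads (right), both over all reads in clusters. On the left the no gel points of AGO1, AGO3, AGO4, TNRC6C and DICER1 lie above both gel points. The groups of 46.4% of the 1121 genes listed in all 4 libraries did not overlap either. AGO1, AGO3 and AGO4 are outside those genes. On the right no mRNA has both no gel libraries above both gel libraries. Points at 0 had no cluster listed or kept.

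The fluorescent AGO2 libraries differed in RNase I dose. DICER1 had 81.1 rpm, TNRC6A 67.6 rpm and AGO4 16.9 rpm at 0.15 U/ul, and at 1.5 U/ul TNRC6A had 23.8 rpm and the other members no cluster listed. The summed members were lower at the higher dose, 0.144-fold (0.0588 to 0.306, counting error only) of 1.5 over 0.15 U/ul. With 1 library per dose there is no test, and these values rest on 8 and 49 reads. Of all clusters in these libraries, 38.7% were in 3' UTRs at 0.15 U/ul and 29.8% at 1.5 U/ul. Coding clusters of all genes held 1.57% and 0.99% of the reads, and intron clusters, in the other direction, 3.26% and 3.79%. How far the fall in the members followed the libraries as a whole was not tested.

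FUBP3 and KHSRP bound the same 7 mRNAs mainly in introns. FUBP3 had 527 of 692 member clusters in introns (76.2%) and 156 in 3' UTRs (22.5%), and KHSRP had 451 of 510 in introns (88.4%) and 55 in 3' UTRs (10.8%). By dose the 3' UTR share of the members was 23.3%, 22.4% and 21.4% in FUBP3 and 12.1%, 8.44% and 10.2% in KHSRP. Over all clusters it was 19.0%, 18.9% and 20.8% in FUBP3 and 8.66%, 9.23% and 8.77% in KHSRP, and over clusters in the same 3 classes it was 22.4%, 22.2% and 24.5% in FUBP3 and 9.73%, 10.4% and 10.4% in KHSRP. By clusters the members were thus near the 3' UTR share of all genes for each protein. By reads, FUBP3 had 28.7%, 31.9% and 24.7% of its member reads in 3' UTRs, below the 37.2%, 37.05% and 30.5% over all clusters, and 71.3%, 66.4% and 73.9% in introns, above 47.98%, 47.8% and 53.9%. Over clusters in the same 3 classes the FUBP3 read shares were 43.1%, 42.8% and 35.6% in 3' UTRs. In introns they were 55.6%, 55.3% and 62.9%. All 22 KHSRP clusters of AGO4 were in introns, and 11 of the 27 FUBP3 clusters of AGO4 were in the 3' UTR.

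The most-read site of each member in each of FUBP3 and KHSRP was cut to the 30 nt richest in TATA within its cluster, and 5 of the 14 stretches held TATA and 9 did not. The 4 below were chosen after their values were seen because they hold it, to show how the copies lie, with TATA in capitals and overlapping copies joined.
DICER1-40 (KHSRP, intron): tTATAtgcttggatTATATATAaaaataaa
AGO3-11 (KHSRP, intron): TATAaaccTATATAggatgttacTATAccg
TNRC6A-51 (KHSRP, intron): tgtaagagaaatatgtttTATAtgttattc
TNRC6A-3 (FUBP3, 3' UTR): tgtttgaattatgaaatttcttcagaTATA
They lay in hg38 at chr14:95132053-95132082 (minus strand), chr1:35969792-35969821, chr16:24737946-24737975 and chr16:24825402-24825431 (plus strand). TATA, searched on the transcript strand, was present in 16.5% of FUBP3 member clusters (19.0% of all FUBP3 clusters) and in 27.1% of KHSRP member clusters (27.1% of all KHSRP clusters). TGTG was present in 25.6% of FUBP3 member clusters (26.2% of all) and 24.3% of KHSRP member clusters (23.6% of all). In both motifs the members were again near the share of all clusters of the same protein, with region classes pooled. Within FUBP3 3' UTR clusters TATA was in 15.4% of the members (10.6% to 21.9%), against 22.8% of all. In FUBP3 introns it was in 17.1%, against 18.4%. In KHSRP it was in 30.9% against 30.8% in 3' UTRs, and 26.8% against 27.3% in introns.

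The most-read site of the 7 mRNAs in these 6 libraries was DICER1-40, an intron site at chr14:95131932-95132202. It had 24 and 26 reads in FUBP3 at 0.15 and 0.5 U/ul and no cluster listed at 1.5 U/ul, against 129, 77 and 22 reads in KHSRP. AGO3-11, an intron site at chr1:35969775-35969933, had no FUBP3 cluster listed and 102 and 26 KHSRP reads at 0.15 and 0.5 U/ul. TNRC6A-48, also in an intron, had 13 and 15 FUBP3 reads at 0.15 and 1.5 U/ul and 61 and 30 KHSRP reads at 0.15 and 0.5 U/ul. In 3' UTRs, DICER1-55 had 14, 5 and 9 FUBP3 reads and no KHSRP cluster listed, and TNRC6C-36 had 14, 11 and 8 FUBP3 reads and no KHSRP cluster listed.

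DICER1 was the member with most KHSRP reads per length of gene. Per kb of RefSeq gene span, introns included, KHSRP reads had a median over doses of 7.80 rpm per kb in DICER1 (7.69 to 7.93), 2.86 in AGO3, 1.62 in TNRC6A, 1.16 in AGO4, 0.740 in AGO1, 0.490 in TNRC6B and 0.165 in TNRC6C. In FUBP3 the medians were 3.21 rpm per kb in DICER1, 2.13 in TNRC6A, 1.74 in AGO3, 1.04 in TNRC6B, 0.826 in AGO4, 0.676 in TNRC6C and 0.650 in AGO1. The ranges over doses of neighbours in this order overlapped, except in FUBP3 those of DICER1 and TNRC6A and of AGO3 and TNRC6B. In KHSRP the ranges of DICER1 and AGO3, of AGO4 and AGO1, and of TNRC6B and TNRC6C did not overlap. Clusters without a gene name lay inside the span of TNRC6C and are outside these values. There were 28 in FUBP3 (216 reads) and 10 in KHSRP (66 reads), and with them the medians of TNRC6C would be 1.00 and 0.495 rpm per kb, so that it no longer came last in KHSRP.

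At matched doses the proteins were compared over 789 genes that reached 50 reads in every FUBP3 and KHSRP library, and 3 of the 7 members were among them. DICER1 had 178, 230 and 260 rpm in FUBP3, against 560, 552 and 569 rpm in KHSRP. Its fold of FUBP3 over KHSRP was 0.317 (0.279 to 0.360), 0.417 and 0.457 at 0.15, 0.5 and 1.5 U/ul, at least 2-fold toward KHSRP at every dose, as for 17.7% of genes. TNRC6A had 337, 461 and 517 rpm in FUBP3, against 424, 350 and 285 rpm in KHSRP, with folds of 0.794, 1.32 and 1.82. TNRC6B had 303, 256 and 373 rpm in FUBP3, against 111, 142 and 430 rpm in KHSRP, with folds of 2.72, 1.79 and 0.868. Only DICER1 of the 3 kept a side at every dose (any fold toward KHSRP at all doses, 60.1% of genes; toward FUBP3, 13.6%), and no member was at least 2-fold toward FUBP3 at all doses, as 0.634% of genes were.

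Most genes leaned toward KHSRP on this scale, and the median log2 fold of FUBP3 over KHSRP over the 789 genes was −0.70, −0.65 and −0.57. Relative to that shift DICER1 was no longer 2-fold toward KHSRP at every dose: with median-of-ratios scaling its smallest log2 difference was 0.56 in size. Within introns DICER1 had folds of 0.299, 0.325 and 0.408, against 0.637, 0.644 and 0.776 for all intron clusters. In its 3' UTR the folds were 0.417, 1.10 and 0.906, against 3.15, 2.95 and 2.95 for all 3' UTR clusters. In the 3' UTR of TNRC6A the folds were 2.64, 4.29 and 5.04, the last on 5 KHSRP reads. With 1 library per protein and dose none of these differences was tested between samples.

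The other 4 members fell short of 50 reads in at least 1 library. TNRC6C had 94.4, 102 and 106.1 rpm in FUBP3, against 55.7, 11.04 and 24.97 rpm in KHSRP, where the last values rest on 10 and 5 reads. TNRC6C was thus higher in FUBP3 at each dose, with 1 library behind each value. With the unnamed clusters in its span it had 163, 134 and 152 rpm in FUBP3, against 75.96, 24.3 and 74.9 rpm in KHSRP. AGO3 had 246, 242 and 317 rpm in FUBP3, against 421, 405 and 245 rpm in KHSRP. AGO4 had 65.3, 41.5 and 22.2 rpm in FUBP3, against 43.3, 58.5 and 99.9 rpm in KHSRP. AGO1 had 29.1, 39.99 and 39.5 rpm in FUBP3, against 18.4, 46.4 and 44.95 rpm in KHSRP. For these 3 Argonaute mRNAs the higher protein was not the same at every dose.

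**Figure D5:**
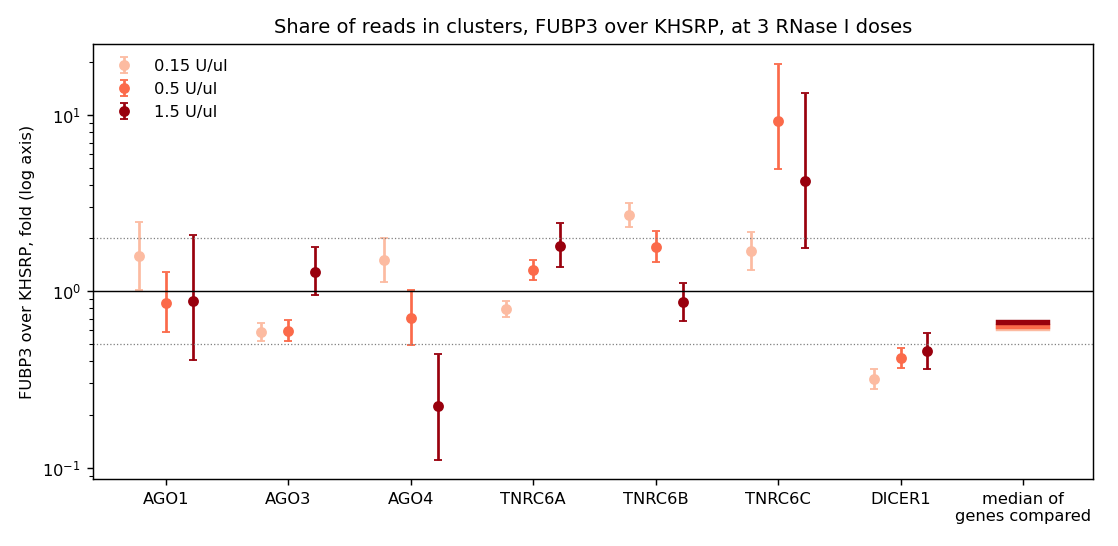
Points give the fold of FUBP3 over KHSRP in share of reads in clusters (y axis, log scale) for each mRNA at 0.15, 0.5 and 1.5 U/ul RNase I (light to dark), with 95% intervals for counting error. Bars at the right are the medians of the 789 genes compared, and dotted lines mark 2-fold. DICER1 lies below the lower line at every dose (0.317, 0.417 and 0.457).

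The deposited share of reads with a T-to-C change had a median of 100% over the member clusters of the radiolabelled AGO2, the FUBP3 and the KHSRP libraries. Over the 5 fluorescent AGO2 member clusters the median was 62.5%, against 78.9% over all clusters of those libraries. FUBP3 clusters had more reads per distinct sequence than KHSRP clusters. The members had 6.03 reads per distinct sequence in FUBP3 and 2.40 in KHSRP, and 73.7% of FUBP3 and 18.4% of KHSRP member clusters rested on 1 distinct sequence. With distinct sequences in place of reads no member reached 50 in each library, and the part of this in the folds was not tested. In the radiolabelled AGO2 libraries, cut by RNase T1 after G, 91.4% of member clusters ended in G, against 87.7% of all clusters. In FUBP3 and KHSRP 17.1% and 17.5% did, against 16.05% and 16.5% of all clusters.

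FUBP3 and KHSRP shared sites on these mRNAs about as often as on all genes. Of 622 FUBP3 and 450 KHSRP sites, 84 were shared, which is 13.5% of the FUBP3 sites and 18.7% of the KHSRP sites, beside 13.2% and 18.4% over the sites of all named genes outside microRNA genes. Few sites recurred within a protein: 4 FUBP3 sites (0.643%, against 1.56% over all genes) and 4 KHSRP sites (0.889%, against 1.04%) were listed at all 3 doses. Of the shared sites 65 were in introns and 17 in 3' UTRs. DICER1 had 25 of them (25.8% of its FUBP3 sites) and AGO1 had 1. None of the sites was listed in all 6 FUBP3 and KHSRP libraries.

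Of the 182 AGO2 sites, 21 (11.5%) overlapped a FUBP3 or KHSRP site, and all 21 were in 3' UTRs. Over all named genes outside microRNA genes 14.9% of AGO2 sites did, and among sites with an AGO2 cluster in a 3' UTR 18.9% did in the members, against 24.7% in all genes. TNRC6A held 9 of them, TNRC6C 5, DICER1 4 and TNRC6B 3, and AGO1, AGO3 and AGO4 none. At the miR-30 site TNRC6A-3 FUBP3 had 95 and 8 reads at 0.5 and 1.5 U/ul and KHSRP 23 reads at 0.15 U/ul, beside 60, 19 and 12 AGO2 reads. At TNRC6A-15, at chr16:24825001-24825085, FUBP3 had 40, 42 and 29 reads and KHSRP 39 and 16, beside 54 AGO2 reads in no gel A. At TNRC6B-2 (miR-18) FUBP3 had 21 and 30 reads at 0.15 and 1.5 U/ul and KHSRP 5 at 1.5 U/ul. Overlap places the clusters on the same stretch of mRNA and does not show binding of the same molecule.

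The other genes of the pathway were taken from a list of 41. In the radiolabelled AGO2 libraries 35 of the 41 had a cluster, in the fluorescent ones 14, in FUBP3 39 and in KHSRP 38. In the gel comparison 6 of the 41 could be tested, AGO2, HSP90AA1, PAN3, CNOT6, PATL1 and TUT4, and 0 were called by edgeR, with 0 at an unadjusted p under 0.05, and 0 by DESeq2, with 0 at an unadjusted p under 0.05. AGO2 mRNA had 4819 and 4685 reads without the gel, against 874 and 116 with it (log2 0.98, SE 0.52, adjusted p 0.417, edgeR), and reads of the tagged transgene and of the cell's own gene cannot be told apart there.

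In the fluorescent AGO2 libraries the most-read pathway mRNAs were AGO2 (1627 reads), DROSHA, the nuclear RNase III enzyme of microRNA processing (97), RAN, which powers nuclear export (54), and LIN28B, which blocks let-7 maturation (53). In FUBP3 they were CNOT2 (2707), RAN (2707), HSP90AA1 (2494) and XRN2 (2333), and in KHSRP CNOT2 (6833), XRN2 (5743), TENT2 (4960) and CNOT1 (2551). Among 10 pathway genes compared between FUBP3 and KHSRP, 1 was at least 2-fold toward KHSRP at every dose and none toward FUBP3. The shares over the 789 genes compared were 17.7% and 0.634%. That gene was CNOT1, the scaffold of the deadenylase complex (folds 0.270, 0.328 and 0.318). The median log2 fold of these 10 was −1.24, −0.96 and −0.85, and that of the 3 members −0.33, 0.40 and −0.20. Over the 789 genes it was −0.70, −0.65 and −0.57.

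Among 184 genes with a cluster in all 12 libraries, the summed level of the 7 mRNAs was most like that of SOBP (r 0.954), SLC7A1, a transporter of basic amino acids (r 0.946), and DEK, a chromatin protein (r 0.943), by Pearson correlation of log2(rpm + 10). These correlations run over 12 libraries that share depth and protocol within each protein. SOBP held 33.8 and 17.9 rpm in the fluorescent AGO2 libraries and 185 to 349 rpm in the other 10, so it was, like the 7 mRNAs, lowest in the fluorescent AGO2 libraries.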

How the data were processed

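The members and the lists of microRNA families and pathway genes were chosen with earlier results of these data known. The deposited files listed clusters called in a single library, and their values were raw counts of reads and of distinct read sequences per cluster, with T-to-C conversion as a fraction of reads, per the file headers. Per the submitters' processing notes, bcl2fastq 2.20.0, cutadapt 1.15 and the build hg38 were used; for the aligner, caller and annotation, nothing is given in the sources used here. All 4 radiolabelled AGO2 libraries did not match hg38 coordinates and were joined to the others by stretches of at least 18 nt. Radiolabelled FUBP3 and KHSRP libraries were outside the choice of clusters and not analysed here.

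Reads were summed per deposited gene name over all reads in clusters. Clusters with no gene name entered no sum. The gel comparison used edgeR 4.0.16 quasi-likelihood (TMM factors, R 4.3.3) on genes listed in all 4 libraries with 10 or more reads in total, without a replicate block, called at an adjusted p under 0.05 over all genes, and DESeq2 1.42.0 as an alternative; the procedure was tested on simulated data. Same-letter libraries did not deviate together (correlation −0.0113 over 1121 genes), so the letters were not taken as pairs. Summed reads were compared by exact permutation. Seeds were read from RefSeq mature microRNAs. The miR-186 family was listed but not used here. Alternatives changed the tool, scaling, filters, cluster minimum, denominator, unit and seed length, and left out each library. The 7 members were always named. Other genes named were the 4 pathway genes with most reads in the fluorescent AGO2, FUBP3 and KHSRP libraries, called or tested pathway genes, and the 3 genes most like the members. Sites named were those in at least 3 AGO2 libraries, those with most reads per member and group, and sites chosen after their values were seen for a shared seed or for FUBP3 and KHSRP overlap. The rest used scipy 1.17.1, pandas 2.3.3 and numpy 2.4.6 under Python 3.11.15, and matplotlib 3.10.9.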

Additional observations from a re-analysis of the deposited data

Results flagged for a closer look

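Some members moved in opposite directions with RNase I dose under different proteins, with 1 library at each dose, and these differences between proteins were not tested. AGO3 reads at 1.5 over 0.15 U/ul were 1.29-fold in FUBP3 and 0.582-fold in KHSRP. AGO4 reads were 0.34-fold in FUBP3 and 2.31-fold in KHSRP, on 18 and 20 reads at 1.5 U/ul. TNRC6A reads were 0.352-fold in AGO2, 1.54-fold in FUBP3 and 0.671-fold in KHSRP. The AGO2 value (0.134 to 0.835, counting error only) rests on 8 reads at 1.5 U/ul and 20 at 0.15 U/ul. The 7 mRNAs summed were 0.144-fold in AGO2 and 1.3-fold in FUBP3.

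Clusters without a gene name lay inside the gene spans of 2 members and were used in no gene sum. There were 38 such clusters in the span of TNRC6C (282 reads over the 6 FUBP3 and KHSRP libraries, 216 of them in FUBP3), beside 71 named hg38 clusters of TNRC6C, and 2 in that of TNRC6A (13 reads in 2 libraries).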

How the results depend on the processing

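The count of members called in the gel comparison was 0 under each of the 12 alternatives run for it, while genes called in all ranged from 0 (at least 10 reads per cluster, or the matched minimum share, or without gel B) to 53 of 10809 (no filter), with 0 to 15 when leaving out a library, 2 by DESeq2 and 5 with distinct sequences. Of the pathway genes 2 of 35, AGO2 and HSP90AB1, were called with no filter, and 0 to 1 when leaving out a library, AGO2 without no gel A and without gel A. The summed difference of 630 rpm became −84.7 rpm over reads outside microRNA genes. It became −257 rpm with the matched minimum, over reads in the clusters kept, and ranged from 399 to 861 rpm when leaving out a library. The replicate letter as a block gave 630 rpm (exact permutation p 0.5), 3 genes and 0 members called; same-letter libraries share only a letter.

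The log2 fold change of TNRC6A lay on the other side of 0 at −0.0945 (without no gel B), −0.0351 (without gel B) and −0.26 (matched minimum), and TNRC6B at 0.16 (no filter), 0.48 (without no gel B), 0.15 (without gel A), 0.00989 (without gel B) and 0.0226 (distinct sequences). The ranges when leaving out a library were −0.09 to 0.36 for TNRC6A, −0.74 to 0.48 for TNRC6B, 1.32 to 2.01 for TNRC6C and 0.74 to 1.28 for DICER1.

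Members on one side in FUBP3 over KHSRP numbered 0 with median-of-ratios scaling, where 41 and 40 genes lay toward FUBP3 and KHSRP, and 0 with distinct sequences, where no member and 60 genes could be compared. With at least 10 reads per library 5 members and 3563 genes were compared, DICER1 again on one side, and 176 and 242 genes lay toward FUBP3 and KHSRP. With any fold in the same direction, 13.6% and 60.1% of genes lay toward FUBP3 and KHSRP. The 3' UTR share was 74.2% in no gel A with at least 10 reads per cluster and 80.5% in no gel B by reads. The share with a seed match in the radiolabelled libraries was 41.6% with 6-base seeds, 14.5% with an A added, 36.8% with at least 10 reads and 21.2% with the 30 most-read seeds, an alternative chosen after seeing the data; in the fluorescent libraries it was 0% for 3' UTR clusters alone. The AGO2 dose fold was 0.174 outside microRNA genes and 0.121 by distinct sequences, and with clusters of at least 10 reads it was 0, from 0 reads at 1.5 U/ul and 44 at 0.15 U/ul (upper limit 0.0768). Beyond counts of clusters and reads set by the construction of an alternative, the cause was not tested. The listing minimum of 5 reads limits what the shallow AGO2 libraries can show.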
